A study of Homo sapiens with 29 samples.

Results

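The module of amino acid supply and ATF4 stress genes described here holds 40 genes, measured in 29 RNA-seq libraries of PC9, a cell line from an EGFR-mutant lung adenocarcinoma. The members were chosen by gene name with earlier results of these data known, so their counts are a description, and all 40 were found among the 35579 genes to which the deposited transcripts were summed. Expression was given as TPM, a unit corrected for transcript length whose total is the same in every library. A mean of 10 TPM over the 29 libraries was reached by 9085 genes, which were tested, among them 32 members. The study asked which signals of the receptor AXL lie behind the behaviour of cells whose EGFR is inhibited.

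The 10 lines were parental cells (PAR), a CRISPR-Cas9 AXL knockout made from them (KO), and 8 lines in which lentivirus returned a form of the receptor to knockout cells, the wild-type form in WT, a kinase-dead form in KD, and forms with a single tyrosine replaced by phenylalanine in Y634F, Y643F, Y698F, Y726F, Y750F and Y821F. Each line was left untreated, given 1 μM of the EGFR inhibitor erlotinib (E), or given erlotinib and the AXL-activating antibody AF154 at 300 ng/mL (EA), for 24 h. There was 1 library for each line and treatment, 10 untreated, 10 with E and 9 with EA, and KO with EA was not analysed here. Every line carries the EGFR mutation of PC9, and the 9 lines other than PAR all descend from knockout cells. By the study's account, only a minority of the cells in the transduced lines expressed AXL. Lines therefore served as the replicates of a treatment, although they carry different receptors, and levels that differ between lines are given with no test.

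When amino acids run short or proteins misfold, kinases phosphorylate the translation factor eIF2alpha, general translation slows, and the mRNA of ATF4 is translated more. ATF4 is a leucine zipper transcription factor that pairs with C/EBP proteins on short DNA elements and switches on amino acid carriers, enzymes of serine, glycine, asparagine and proline synthesis, and stress genes such as DDIT3 and TRIB3. Because ATF4 is governed largely by translation, its RNA need not follow its protein, and only RNA was measured.

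AXL, the targeted gene, lay between 79.3 and 92.4 TPM in the KO libraries and between 217 and 852 TPM in the 27 others, so its RNA was reduced but present in KO. The epithelial markers EPCAM (286 to 439 TPM) and KRT8 (1249 to 1952 TPM) were high in every library, while the lung marker NKX2-1 stayed at or below 0.354 TPM. Of markers of other cells, CD3E was listed at 0 in all libraries, COL3A1 reached 0.0620 TPM and PTPRC 1.0 TPM, whereas COL1A1 reached 70.9 TPM and CD68 68.1 TPM. Mitochondrially encoded genes took 11.4% to 14.4% of the TPM in untreated libraries, 12.3% to 17.4% with E and 12.9% to 17.4% with EA. TPM keeps no record of read numbers, so the depth behind a value is unknown, and fewer cells of a kind cannot be told apart from less RNA per cell.

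The element that ATF4 and C/EBP proteins share was looked for as the letters TGATGNAA on either strand (TTNCATCA on the other), in RefSeq windows from 250 bases before to 50 after each transcript start (GRCh38.p14). A match was found in 1270 of 35116 windows, or 3.62%, and in 13 of 55 windows of members, or 23.6%. By gene it was found for 4.46% of the 27305 genes with a window and for 31.4% of the members with one, 11 of 35. The module holds known ATF4 targets by choice, so a higher share among the members was built in. The 11 were ASNS, CEBPG, CHAC1, GOT1, MTHFD1L, PPP1R15B, SLC1A4, SLC1A5, SLC38A1, SLC3A2 and SLC7A1. GPT2, NUPR1, PSPH, PYCR1 and SHMT2 had no window. A match is a run of letters and was not tested as a binding site. The 5 windows shown are in the sense of the gene with the match in capitals. They are those of ASNS, CEBPG and SLC1A5, which fell with E, of SLC3A2, which rose, and of CHAC1, a low member whose RNA did not pass the test. Each start is that of a RefSeq transcript and need not be the outermost start of the gene. The windows of SLC1A5 (gene from 46774883 to 46788594) and SLC3A2 (gene from 62856102 to 62888875) lie inside the gene. Which starts gave the measured RNA was not tested.
ASNS (chr7:97872359-97872658, minus strand, first base of the match at -68 from the start): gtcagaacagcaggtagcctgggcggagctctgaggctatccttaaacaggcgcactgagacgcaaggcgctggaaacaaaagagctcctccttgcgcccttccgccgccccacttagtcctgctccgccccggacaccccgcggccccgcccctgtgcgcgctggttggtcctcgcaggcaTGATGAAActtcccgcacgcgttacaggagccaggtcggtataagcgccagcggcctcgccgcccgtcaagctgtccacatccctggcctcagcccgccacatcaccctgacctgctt
CEBPG (chr19:33373863-33374162, plus strand, match at -42): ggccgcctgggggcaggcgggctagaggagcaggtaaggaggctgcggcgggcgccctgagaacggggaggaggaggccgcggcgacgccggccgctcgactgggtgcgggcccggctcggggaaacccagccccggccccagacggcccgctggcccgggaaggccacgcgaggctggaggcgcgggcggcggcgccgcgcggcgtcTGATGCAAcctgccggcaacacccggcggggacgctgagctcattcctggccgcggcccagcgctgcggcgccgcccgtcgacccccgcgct
SLC1A5 (chr19:46784765-46785064, minus strand, match at -97): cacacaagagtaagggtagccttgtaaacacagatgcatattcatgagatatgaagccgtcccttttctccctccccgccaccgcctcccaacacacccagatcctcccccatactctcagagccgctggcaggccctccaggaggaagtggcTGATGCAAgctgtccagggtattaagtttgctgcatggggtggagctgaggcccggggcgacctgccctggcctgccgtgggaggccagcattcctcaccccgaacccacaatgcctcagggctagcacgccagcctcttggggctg
SLC3A2 (chr11:62881449-62881748, plus strand, match at 37, within the transcript): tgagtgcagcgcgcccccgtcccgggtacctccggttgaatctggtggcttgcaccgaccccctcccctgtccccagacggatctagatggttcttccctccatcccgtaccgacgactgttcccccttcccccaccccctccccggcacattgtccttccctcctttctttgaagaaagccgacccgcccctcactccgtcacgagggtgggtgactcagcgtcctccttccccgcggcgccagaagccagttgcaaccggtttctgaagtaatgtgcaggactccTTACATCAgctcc
CHAC1 (chr15:40953221-40953520, plus strand, match at -209): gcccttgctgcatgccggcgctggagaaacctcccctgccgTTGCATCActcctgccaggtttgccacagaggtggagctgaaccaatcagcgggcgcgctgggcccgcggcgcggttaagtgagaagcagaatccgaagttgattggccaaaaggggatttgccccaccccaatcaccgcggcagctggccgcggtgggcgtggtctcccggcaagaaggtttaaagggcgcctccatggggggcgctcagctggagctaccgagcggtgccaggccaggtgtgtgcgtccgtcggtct

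Under erlotinib the tested enzymes of the module fell, while a few carriers and PPP1R15A rose. Against untreated cells in the 10 lines, 6 of the 32 tested members rose and 21 fell (limma, adjusted p under 0.05), where 36.4% of all 9085 genes rose and 42.6% fell. The median change of the members was -0.59 on the log2(TPM + 1) scale, against -0.04 over all genes tested. The members that fell were led by enzymes that make serine, glycine and one-carbon units, and those that rose were led by SLC7A5, a chain of the large neutral amino acid exchanger, and by PPP1R15A. In 24 of the 32 members the change had the same sign in all 10 lines, as it had in 57.6% of all genes. For 17 members every E library lay below every untreated library, a separation shown by 21.6% of all genes, and for PPP1R15A and SLC38A2 every E library lay above, as for 14.9% of all genes.

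**Figure D1:**
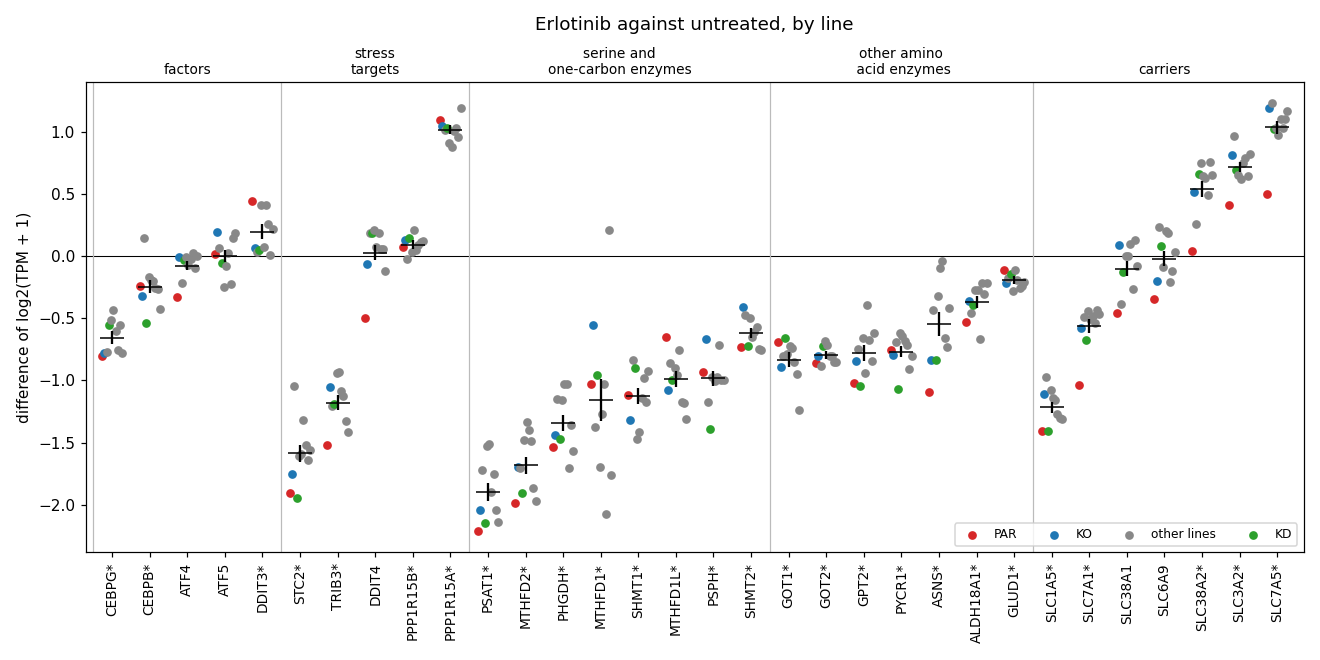
Change with erlotinib of the 32 tested members, grouped by role, on the vertical axis as the difference of log2(TPM + 1) between E and untreated cells of the same line. Each point is 1 of the 10 lines (PAR red, KO blue, KD green, others grey), the black bar is the limma estimate with its standard error as a vertical line, and an asterisk marks an adjusted p under 0.05. All 8 serine and one-carbon enzymes and all 7 other enzymes have estimates under 0, while SLC7A5, SLC3A2, SLC38A2 and PPP1R15A stand above 0 in every line.

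Of the 5 transcription factors, CEBPB and CEBPG fell, DDIT3 rose, and ATF4 and ATF5 did not pass the test. ATF4 (ENSG00000128272, chromosome 22 from 39519695 to 39522685 in GENCODE 29) ranged from 281 to 339 TPM in untreated cells with a median of 326 TPM, from 223 to 335 TPM with E with a median of 319 TPM, and from 199 to 344 TPM with EA. The lowest value of each treatment was that of PAR, and the groups overlapped. Its change with E was -0.08 (SE 0.03, lower in 8 of 10 lines) and did not pass the test (adjusted p = 0.058). The value rested in part on single lines, at -0.05 without PAR (adjusted p = 0.12), and it passed without Y726F (-0.09, adjusted p = 0.046). With quantile normalization it was -0.00063 (adjusted p = 0.99). ATF5, a related factor, was at 32.7 TPM ± 3.99 untreated and 32.6 TPM ± 2.67 with E (SD, n = 10), with 6 lines higher and 4 lower, and did not pass the test (adjusted p = 0.99).

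DDIT3, which encodes CHOP, the factor that links lasting stress to cell death, lay between 9.29 and 19.8 TPM untreated (median 14.8 TPM) and between 13.0 and 21.0 TPM with E (median 16.7 TPM). The ranges overlapped widely, but within a line E was higher in 10 of 10. DDIT3 rose by 0.20 (SE 0.06, adjusted p = 0.0086), a 1.15-fold change, and did not pass in a fit without the line as a block (adjusted p = 0.096). CEBPG, a dimer partner of ATF4, fell in all 10 lines from 20.6 TPM ± 1.19 to 12.7 TPM ± 1.08, and its groups did not overlap. CEBPB, another C/EBP protein, fell by a smaller step of 0.25 in 9 of 10 lines, with WT the exception.

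The stress targets split. PPP1R15A, better known as GADD34, recruits a phosphatase that restores eIF2alpha and so ends the response. It lay between 25.0 and 35.3 TPM untreated (median 31.2 TPM) and between 51.6 and 69.8 TPM with E (median 65.1 TPM), with WT the lowest in both. PPP1R15A rose by 1.02 (SE 0.04, adjusted p = 4.5e-12), about 2.02-fold, with a line range of 0.87 to 1.2. Its constitutive counterpart PPP1R15B rose by only 0.09 (adjusted p = 0.033, 9 of 10 lines), a call that was lost on leaving out any of KD, KO, Y643F, Y726F, Y750F or Y821F, with adjusted p between 0.053 and 0.074. The ratio of PPP1R15A to PPP1R15B, both per length, had a median of 1.13 untreated and 2.18 with E, and its ranges did not overlap (0.772 to 1.24 and 1.62 to 2.35).

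TRIB3, a pseudokinase that ATF4 induces and that restrains it in turn, went the other way. It lay between 45.8 and 55.9 TPM untreated (median 50.1 TPM) and between 15.3 and 25.9 TPM with E (median 21.4 TPM), so that the highest E value was well under the lowest untreated one. TRIB3 fell by 1.18 (SE 0.06, adjusted p = 1.1e-10) in 10 of 10 lines.

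STC2, a secreted glycoprotein and ATF4 target, differed more between lines than any of the former. It ranged from 101 to 319 TPM untreated (median 240 TPM) and from 26.2 to 104 TPM with E (median 84.4 TPM), with PAR lowest and Y634F highest in both, and the groups touched only at untreated PAR, just under Y634F with E. STC2 fell by 1.59 (SE 0.07, adjusted p = 3.6e-11) in 10 of 10 lines. A transcript annotated as a retained intron held 44.1% of its TPM, and with protein-coding transcripts alone the change was -1.48. DDIT4, which encodes REDD1, an inhibitor of mTORC1, was at 77.5 TPM ± 8.21 untreated and 79.0 TPM ± 7.96 with E, and did not pass the test (adjusted p = 0.68).

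All 8 enzymes of serine synthesis and the folate cycle fell. PSAT1 (ENSG00000135069, chromosome 9 from 78297143 to 78330093), the aminotransferase of serine synthesis, lay between 48.4 and 70.6 TPM untreated (median 64.8 TPM) and between 11 and 19.6 TPM with E (median 17.0 TPM). KO was the lowest line in both treatments, and the groups lay far apart. PSAT1 fell by 1.90 (SE 0.07, adjusted p = 7.3e-12), a 3.73-fold lower level and the largest change among the tested members.

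PHGDH, the dehydrogenase that commits a glycolytic intermediate to serine, lay between 111 and 192 TPM untreated (median 160 TPM) and between 37.6 and 85.8 TPM with E (median 60.1 TPM). PAR was the lowest line in both and the groups did not overlap. PHGDH fell by 1.35 (SE 0.06, limma, adjusted p = 8.0e-11) in all lines. Transcripts not annotated as protein-coding held at least 24.7% of its TPM, and its change lay between -1.38 and -1.17 over 20 alternatives. PSPH, the phosphatase that releases serine, fell by 0.98 from 87.2 TPM ± 6.63 to 43.7 TPM ± 4.70. PSAT1 fell more than PHGDH, so that the ratio of their TPM had a median of 0.373 untreated and 0.260 with E. The ranges of this ratio overlapped (0.324 to 0.635 and 0.202 to 0.385).

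MTHFD2, the mitochondrial dehydrogenase and cyclohydrolase of the folate cycle, lay between 56.0 and 65.9 TPM untreated (median 59.3 TPM) and between 13.7 and 23.8 TPM with E (median 18.7 TPM). It fell by 1.68 (SE 0.07, adjusted p = 1.7e-11) in 10 of 10 lines, most in PAR at -1.99 and least in Y643F at -1.33. A transcript marked for nonsense-mediated decay held 47.2% of its TPM, and the change was -1.56 with protein-coding transcripts alone. MTHFD1L, which turns mitochondrial formyl-folate into formate, fell by 0.99 from 32.6 TPM ± 3.92 to 15.9 TPM ± 1.57.

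SHMT1 and SHMT2 convert serine to glycine in the cytosol and the mitochondrion. SHMT1 lay between 55.4 and 70.2 TPM untreated (median 64.6 TPM) and between 22.9 and 33.2 TPM with E (median 29.6 TPM), with no overlap. SHMT1 fell by 1.13 (SE 0.06, adjusted p = 4.5e-10) in every line. SHMT2 was the more abundant form, at 149 TPM ± 7.52 untreated, and fell by 0.62 to 96.7 TPM ± 7.40. The TPM ratio of SHMT1 to SHMT2 went from a median of 0.427 to 0.316, with ranges that met at their ends (0.361 to 0.481 and 0.212 to 0.363).

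MTHFD1, the cytosolic trifunctional folate enzyme, was the least steady of the tested members, with the largest standard error of the change with E. It ranged from 30.5 to 109 TPM untreated (median 67.5 TPM) and from 15.8 to 40.2 TPM with E (median 32.3 TPM). Y750F was the lowest untreated line and the only line in which MTHFD1 was higher with E, while Y726F changed most at -2.07. MTHFD1 fell by 1.15 (SE 0.17, adjusted p = 1.8e-05) in 9 of 10 lines. Its most abundant transcript was listed at anything from 0.145 to 85.7 TPM across the 29 libraries, and the part that the division of reads among transcripts had in this scatter was not tested.

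The 7 other tested enzymes fell too. ASNS (ENSG00000070669, chromosome 7 from 97852118 to 97872542), asparagine synthetase and a textbook ATF4 target, lay between 24.0 and 32.4 TPM untreated (median 27.4 TPM) and between 13.0 and 23.6 TPM with E (median 20.1 TPM). PAR, KO and KD were the 3 lowest lines with E at 13.0, 13.7 and 14.0 TPM, and the 7 others lay between 17.1 and 23.6 TPM. ASNS fell by 0.55 (SE 0.09, adjusted p = 8.8e-05), by 1.09 in PAR and by as little as 0.04 in Y698F.

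Proline synthesis was represented by ALDH18A1, which fell by 0.37, and by PYCR1, which fell by 0.77 from 56.6 TPM ± 3.37 to 32.9 TPM ± 2.75. The transaminases GOT1, GOT2 and GPT2, which move amino groups between glutamate and other amino acids, fell by 0.83, 0.80 and 0.78. GOT2 was the steadiest of them, with line changes between -0.88 and -0.69. GLUD1, glutamate dehydrogenase, fell by 0.19 in all 10 lines, from 54.4 TPM ± 3.67 to 47.5 TPM ± 4.5, and reads shared with its pseudogene GLUD1P3, listed at a mean of 5.49 TPM, could have been divided between them.

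**Figure D2:**
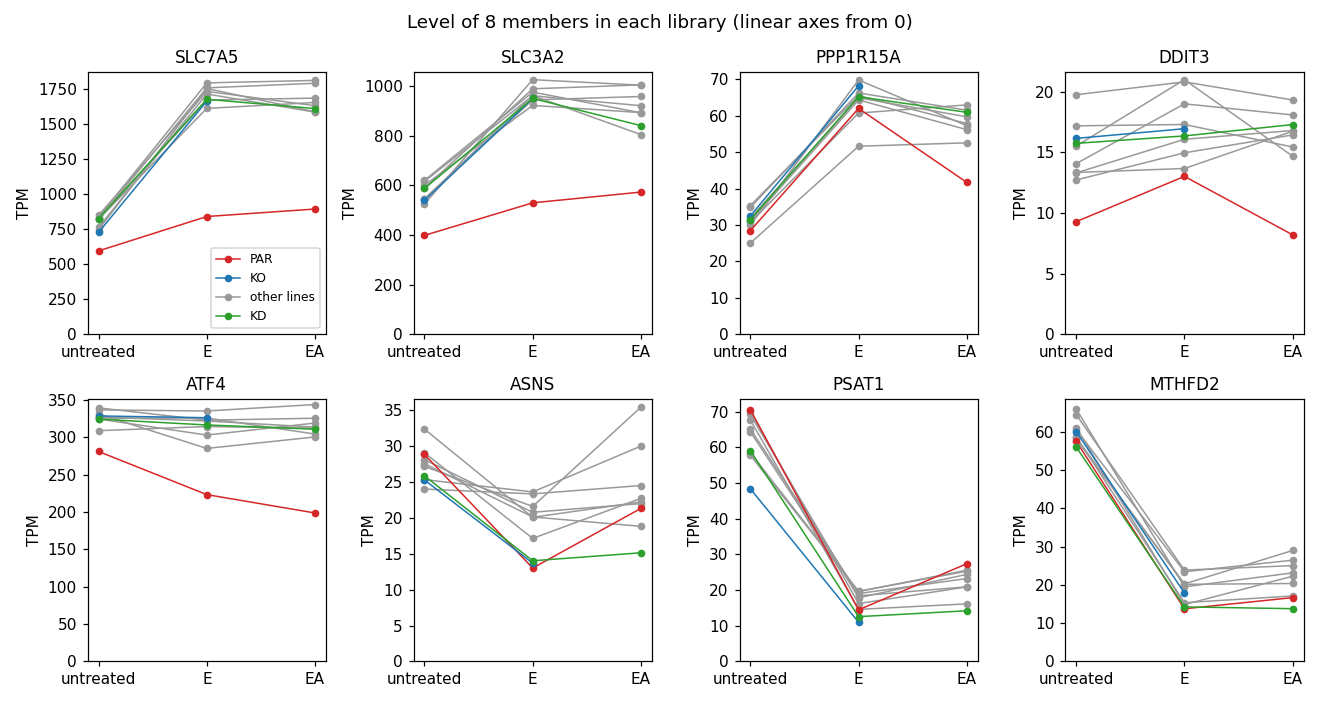
Levels of 8 members in TPM on linear axes from 0, for untreated, E and EA libraries. Each line of points is 1 cell line (PAR red, KO blue with no EA library, KD green, others grey). SLC7A5 and SLC3A2 rise in all lines with PAR far below the rest, PSAT1 and MTHFD2 fall in all lines, ATF4 moves little outside PAR, and ASNS with E is lowest in PAR, KO and KD.

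The carriers moved in opposite directions. SLC7A5 (ENSG00000103257, chromosome 16 from 87830023 to 87869488), the LAT1 exchanger that imports leucine and other large neutral amino acids, was the most abundant member. It lay between 593 and 847 TPM untreated (median 818 TPM) and between 838 and 1790 TPM with E (median 1692 TPM). The groups met only in PAR, whose 838 TPM with E fell within the untreated range, and the 9 other lines with E all lay at or above 1609 TPM. SLC7A5 rose by 1.03 (SE 0.06, adjusted p = 2.6e-10) in 10 of 10 lines, about 2.05-fold, by 0.50 in PAR and by 0.97 to 1.23 in the 9 others.

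SLC3A2, the heavy chain CD98 that carries LAT1 to the membrane, rose by 0.72 in 10 of 10 lines, from 557 TPM ± 65.1 to 922 TPM ± 141, and PAR again rose least. The ratio of SLC7A5 to SLC3A2 had a median of 1.40 untreated and 1.76 with E, with ranges of 1.33 to 1.5 and 1.58 to 1.82. SLC38A2, the sodium-coupled importer SNAT2 of glutamine and alanine, rose by 0.54 from 96.7 TPM ± 11.8 to 141 TPM ± 16.8, with PAR at 0.04 and the highest line, Y750F, at 0.76.

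SLC1A5, the sodium-dependent glutamine carrier ASCT2, fell. It lay between 140 and 170 TPM untreated (median 158 TPM) and between 60.9 and 74.3 TPM with E (median 64.8 TPM), which left a wide gap between the groups. SLC1A5 fell by 1.22 (SE 0.04, adjusted p = 4.2e-12) in 10 of 10 lines. The arginine and lysine carrier SLC7A1 fell by 0.57, by 1.04 in PAR and by 0.43 to 0.67 in the 9 others. The glycine carrier SLC6A9 (29.6 TPM ± 2.09 and 29.4 TPM ± 4.21) and the glutamine carrier SLC38A1 (65.0 TPM ± 6.33 and 60.6 TPM ± 6.08) did not pass the test (limma), with adjusted p of 0.74 and 0.13. A transcript not annotated as protein-coding held 31.8% of the TPM of SLC6A9.

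The 8 other members lay under a mean of 10 TPM and entered only a fit of the 14111 genes that averaged 1 TPM or more, in which 35.5% of genes rose with E and 36.3% fell. GDF15, a stress cytokine, was at 0.339 to 4.34 TPM untreated and 2.56 to 14.2 TPM with E, and rose in all 10 lines by 1.43 (adjusted p = 3.0e-08). NUPR1, a small stress-induced chromatin protein, rose in all 10 lines from 1.25 TPM ± 0.415 to 5.53 TPM ± 2.46, and VLDLR, a lipoprotein receptor, from 2.76 TPM ± 0.720 to 5.02 TPM ± 1.16. CTH, which makes cysteine from cystathionine, rose by 0.23 in 9 of 10 lines.

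CBS, which makes cystathionine from serine and homocysteine, fell in all 10 lines by 0.55 from 11.2 TPM ± 3.32 to 7.21 TPM ± 1.33. The neutral amino acid carrier SLC1A4 fell by 0.37 (adjusted p = 0.012) and was at most 2.69 TPM in untreated libraries and 2.29 TPM with E. CHAC1, which breaks down glutathione, was at 3.97 TPM ± 1.25 and 3.33 TPM ± 1.07 (adjusted p = 0.15), and SESN2, an inhibitor of mTORC1 that senses leucine, at 2.79 TPM ± 0.266 and 2.43 TPM ± 0.301 (adjusted p = 0.13). At such levels the log2(TPM + 1) scale understates a change.

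AF154 on top of erlotinib changed little in the module. In the 8 lines other than KO and KD, 1 of 32 tested members rose and 0 fell between E and EA, where 1.88% of all genes rose and 0.473% fell (limma), so the members' count lay near the background. That background depended on single lines, and without Y634F 10 of all genes rose and 0 fell. An unadjusted p under 0.05 was given to 8 of the 32 members and to 20.9% of all genes. Of these members, PSAT1, MTHFD2, SHMT1, ASNS, MTHFD1L and GOT2 were higher with EA. PPP1R15A (-0.17, 6 of 8 lines lower) and STC2 (-0.16, 5 of 8 lines lower) were lower, without passing the adjusted test. The median member change was 0.04, against 0.02 over all genes. The member that rose, PSAT1, reached at most 19.6 TPM with E and lay between 16.1 and 27.4 TPM with EA in these lines. EA was higher in 8 of 8 lines, but the ranges overlapped, PAR with E being lowest. PSAT1 rose by 0.37 (SE 0.08, adjusted p = 0.035), by 0.88 in PAR and by 0.14 to 0.43 in the 7 others, and by 0.17 in KD. The call was lost on leaving out WT, Y634F, Y643F, Y698F or Y750F, with adjusted p between 0.051 and 0.091, and it stood without PAR (0.30, adjusted p = 0.047). It was also lost without the line as a block (adjusted p = 0.14) and in the fit of genes from 1 TPM (adjusted p = 0.063).

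The other enzymes of the serine and folate group all had estimates above 0 between E and EA, without passing the test. MTHFD2 was higher with EA in 8 of 8 lines at 0.24 (SE 0.07, adjusted p = 0.080) and was at -0.04 in KD. SHMT1 was higher in 7 of 8 lines at 0.27 (adjusted p = 0.10), and MTHFD1L in 7 of 8 at 0.23 (adjusted p = 0.11). SHMT1 passed only without Y821F (adjusted p = 0.043), and MTHFD1L only with protein-coding transcripts (adjusted p = 0.044), among the 18 alternatives tried.

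ASNS in these 8 lines lay between 13.0 and 23.6 TPM with E and between 18.8 and 35.4 TPM with EA. It was higher with EA in 7 of 8 lines, most in Y634F, which went from 21.6 to 35.4 TPM, while WT went from 20.1 to 18.8 TPM. The estimate of 0.28 (SE 0.09, adjusted p = 0.10) did not pass, and KD moved from 14.0 to 15.1 TPM. ATF4 (-0.01, adjusted p = 0.84, 4 of 8 lines higher) and DDIT3 (-0.12, adjusted p = 0.49, 3 of 8 lines higher) did not pass either, and DDIT3 in PAR went from 13.0 to 8.20 TPM. The estimate of DDIT3 was -0.05 without PAR and -0.07 without Y698F. Y821F gave the lowest change of the 8 lines for 13 of the 32 members, or 40.6%, a place it took in 22.1% of all genes. Mitochondrially encoded genes took 17.4% of the TPM of its EA library and 12.9% of that with E, and the part of this in its values was not tested.

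Of the 8 members under 10 TPM, 0 passed between E and EA in that wider fit (limma), where 0.411% of all genes rose and 0.0638% fell, and 3 had an unadjusted p under 0.05, GDF15 (-0.35), CBS (0.15) and SLC1A4 (0.30), as had 16.9% of all genes. SLC1A4, at 1.61 TPM ± 0.458 with E and 2.25 TPM ± 0.741 with EA, was higher in 8 of 8 lines.

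**Figure D3:**
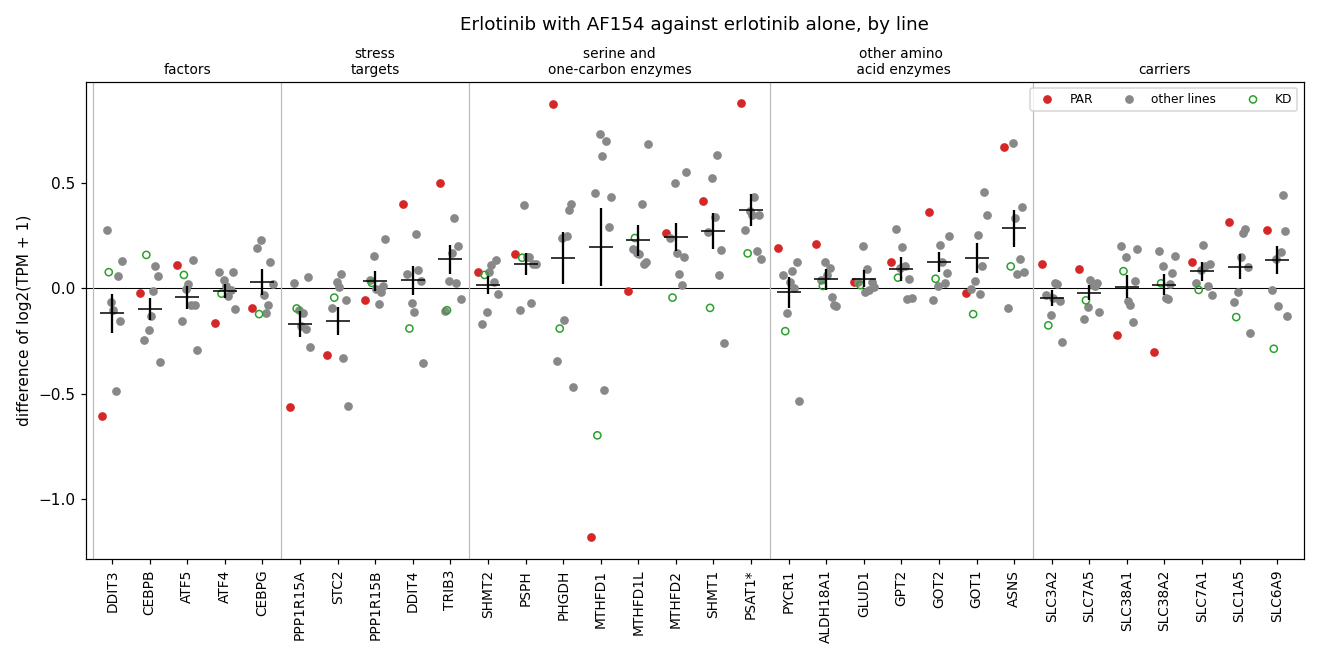
Change on adding AF154 to erlotinib for the 32 tested members, as the difference of log2(TPM + 1) between EA and E cells of the same line. Filled points are the 8 lines of the comparison (PAR red, others grey), the open green circle is KD, which was not in the fit, and the black bar is the limma estimate with its standard error as a vertical line. PSAT1, with the asterisk of an adjusted p under 0.05, has all 8 filled points above 0, and MTHFD1 in PAR lies lowest at -1.18.

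Against untreated cells, EA left most of the erlotinib pattern in place. In the 8 lines, 4 of 32 tested members rose and 20 fell (limma), beside 33.1% and 37.6% of all genes, with a median of -0.54 for the members and -0.03 for all genes. These comparisons use the same untreated libraries as those of E, so the values stand side by side and are not independent. SLC7A5 rose by 1.0 (SE 0.06, adjusted p = 2.3e-08), and PPP1R15A, SLC3A2 and SLC38A2 by 0.84, 0.66 and 0.54. SLC38A2 was higher in 7 of 8 lines, since PAR went down from 112 to 92.9 TPM.

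STC2 fell most with EA, by 1.68 (SE 0.11, adjusted p = 4.6e-08) in 8 of 8 lines. PSAT1 fell by 1.48 (SE 0.09, adjusted p = 2.1e-08), MTHFD2 by 1.41 (SE 0.08, adjusted p = 1.8e-08) and PHGDH by 1.17 (SE 0.13, adjusted p = 4.0e-06), each in 8 of 8 lines. SLC1A5 fell by 1.10, MTHFD1 by 1.06, TRIB3 by 1.06, SHMT1 by 0.86 and PSPH by 0.86. MTHFD1 was lower in 7 of 8 lines, and the 4 others in 8 of 8. ASNS did not pass, at -0.19 (SE 0.11, adjusted p = 0.13), with 3 of 8 lines higher and EA values from 18.8 to 35.4 TPM around untreated values of 24.0 to 32.4 TPM. It passed when Y634F was left out (-0.27, adjusted p = 0.029) and when KD, at -0.74, was added (-0.25, adjusted p = 0.049). ATF4 was at -0.10 (adjusted p = 0.12), or -0.05 without PAR, and DDIT3 at 0.11 (adjusted p = 0.25). In the wider fit from 1 TPM, where 31.1% of genes rose and 31.6% fell, NUPR1, GDF15 and VLDLR rose by 1.30, 1.06 and 0.75 and CBS fell by 0.42.

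PAR stood apart in several members, with 1 library for each treatment and so no test. Among the 32 tested members, 7 were lower in PAR than in all other lines in each of the 3 treatments (ATF4, DDIT3, PPP1R15B, STC2, SHMT2, SLC3A2 and SLC7A5), a place PAR took in 11.8% of all genes. GLUD1 alone was higher, beside 8.71% of all genes. SLC7A5 in PAR was at 593, 838 and 892 TPM untreated, with E and with EA, where the medians of the other lines were 819, 1711 and 1639 TPM. STC2 was at 101, 26.2 and 20.8 TPM in PAR, where the lowest of the other lines were at 177, 67.5 and 51.0 TPM. GDF15, under the filter, was at 0.339, 2.56 and 1.25 TPM in PAR and at medians of 2.89, 9.80 and 8.21 TPM elsewhere. CBS was at 19.3 TPM in untreated PAR and at 8.04 to 13.4 TPM in the 9 other untreated lines. The PAR library with E had the largest mitochondrial share of that treatment, 17.4%, and the part of this in its levels was not tested. Leaving PAR out changed none of the calls of the 32 tested members between E and untreated, and was not run for the 8 under the filter.

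Among the other lines, KO was lowest for PSAT1 in both of its treatments, at 48.4 TPM untreated and 11 TPM with E, and Y634F was highest for STC2 in all 3, at 319, 104 and 106 TPM. KD with EA had the lowest values of that treatment for PSAT1 (14.2 TPM), ASNS (15.1 TPM), MTHFD2 (13.8 TPM), PSPH (38.3 TPM), SHMT1 (27.4 TPM), MTHFD1L (17.3 TPM) and GOT1 (11.9 TPM). Under the filter, KD with EA was lowest for CBS (5.41 TPM) and SLC1A4 (1.27 TPM). The share of all genes in which this library was lowest is not given. No line other than PAR was beyond all others in every treatment for more than 1 of the 32 members.

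**Figure D4:**
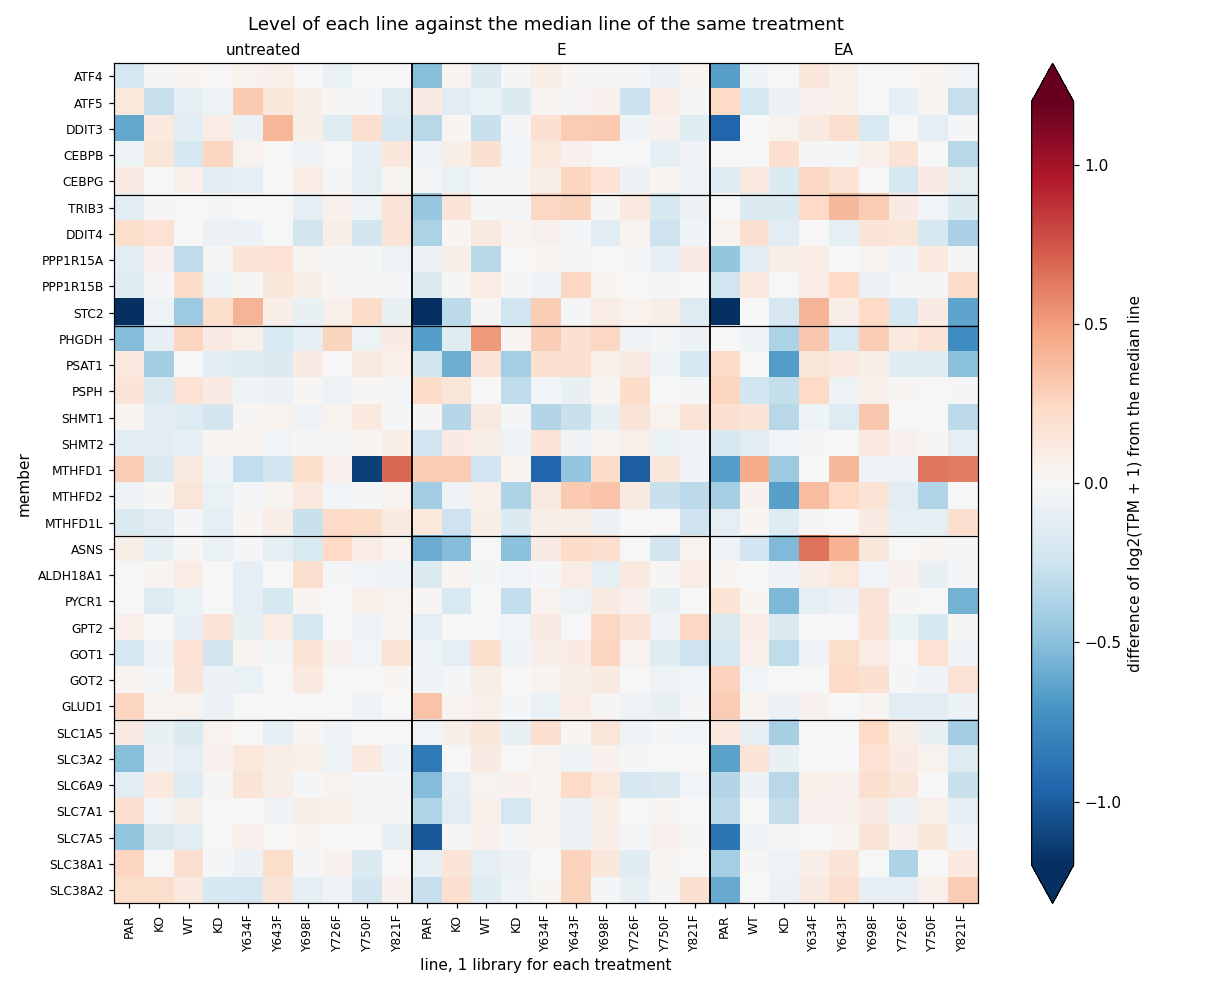
Level of each of the 32 tested members in each library, as the difference of log2(TPM + 1) from the median line of the same treatment (red above, blue below, colours capped at the ends of the bar). Columns are lines within untreated, E and EA, rows are members by role. STC2, SLC7A5 and SLC3A2 are blue in all 3 PAR columns, STC2 the most deeply. MTHFD1 varies in both directions with no fixed line, and ASNS with E is blue in PAR, KO and KD.

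Further genes of the same pathways were taken from lists, whose counts with E stand beside the 36.4% of all genes that rose and the 42.6% that fell. Of the eIF2alpha kinases and regulators, 7 of 8 were tested, 2 rose with E and 4 fell (median -0.64), led by EIF2S1, which encodes eIF2alpha itself (-0.90), the kinases EIF2AK2 (-0.75) and EIF2AK4, or GCN2, the sensor of uncharged tRNA (-0.65). The kinase EIF2AK1, or HRI, which responds to low heme, rose by 0.34 in 10 of 10 lines (adjusted p = 1.3e-05). Of 12 other ATF4 targets, 7 were tested, 3 rose and 3 fell (median 0.05). KLHL24 rose by 2.30 from 14.4 TPM ± 3.37 to 74.3 TPM ± 11.4, while VEGFA, an angiogenic factor, fell by 1.48 and EIF4EBP1, an inhibitor of cap-dependent translation, by 1.11.

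Of 18 genes of the chaperone arm of the unfolded protein response, 17 were tested, 4 rose and 12 fell (median -0.36), and SDF2L1 (-1.02), EDEM1 (-0.69) and PDIA6 (-0.57) led. Of 21 other amino acid and one-carbon enzymes, 13 were tested, 4 rose and 8 fell (median -0.35). GLUL, which makes glutamine from glutamate, rose by 2.07 from 109 TPM ± 12.6 to 460 TPM ± 35.4 in 10 of 10 lines, and the mitochondrial serine carrier SFXN1 fell by 1.08 and the glycine cleavage protein GCSH by 1.02. Of 15 other amino acid carriers, 7 were tested, 3 rose and 2 fell (median 0.05). SLC7A7, another light chain of SLC3A2, rose by 2.97 from 2.71 TPM ± 0.780 to 28.8 TPM ± 8.30, beside SLC25A22 at -0.45 and SLC38A9 at 0.40. SLC7A7 passed the filter of 10 TPM only through its treated libraries, and a gene admitted so had to differ. The same holds for ALDH4A1 among the enzymes that rose (8.72 and 18.4 TPM) and, through its untreated libraries, for SLC25A32 among those that fell (19.4 and 9.52 TPM). SLC7A11, the cystine exchanger, stands in both the ATF4 target and carrier lists and did not pass between E and untreated (0.05, limma, adjusted p = 0.34). Between E and EA it was higher in 8 of 8 lines without passing (0.17, adjusted p = 0.066). With EA against untreated it passed, at 0.22 (adjusted p = 0.0031, 7 of 8 lines higher).

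Between E and EA, 1 gene of these lists passed, the chaperone HSP90B1 at 0.15 (limma, adjusted p = 0.045). Of all genes, 1.88% rose and 0.473% fell, and the list medians lay between 0.03 and 0.10. Against untreated cells with EA, 33.1% of all genes rose and 37.6% fell. Genes that rose and fell numbered 1 and 4 of 7 tested in the eIF2alpha list, and 4 and 3 of 7 ATF4 targets. They numbered 3 and 11 of 17 for the chaperones, 4 and 7 of 13 for the enzymes and 4 and 1 of 7 for the carriers. Of the 11 members with the letters TGATGNAA in a promoter window, 2 rose with E, 6 fell, 1 did not pass and 2 were under the filter. Of the 24 with a window and no match, 4 rose, 11 fell, 4 did not pass and 5 were under the filter. Both sets stand beside the 36.4% of all genes tested that rose with E and the 42.6% that fell. A link between the letters and the direction was not tested.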

How the data were processed

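The authors deposited TPM per transcript for 29 libraries. The submitters' processing notes name kallisto and GRCh38, and the version, annotation and strand handling are not given in the sources used here. Doses are from the study's methods. Of 188753 transcripts, 169797 were matched to GENCODE 29 by identifier without version and summed to 35579 genes, and 18956 were not used. Matched transcripts held 97.0% to 97.4% of the TPM. Genes averaging 10 TPM or more were kept (9085).

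Values were log2(TPM + 1), and each fold change is a ratio of TPM + 1. Groups were compared with limma 3.58.1 in R 4.3.3 (lmFit, eBayes with trend), with the line as a block. p-values were adjusted over all genes kept by Benjamini-Hochberg, at a threshold of 0.05. E and untreated were compared in 10 lines, and EA in the 8 lines other than KO and KD. The block rests on the shared cell line. A line's untreated and E libraries deviated from the group means together, with r over genes of 0.60 in PAR and 0.10 to 0.36 in the other lines. Its E and EA libraries did so with r of 0.74 in PAR and 0.11 to 0.30 in the other lines. p-values measure the spread between lines only. The steps were tested on simulated data.

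All 40 members are named. Full statistics were given to the 10 largest changes past the threshold in a comparison and to ATF4, DDIT3 and ASNS, and at most 3 genes of each list were named by the largest change. SLC7A11, HSP90B1, EIF2AK1, ALDH4A1, SLC25A32 and the ratios were named after their values were seen. Members and lists were chosen with earlier results of these data known. Alternatives were a pseudocount of 0.1, other filters, scalings and transcripts, no block, quality weights, other line sets and leaving out each line. Promoter windows are from RefSeq (GRCh38.p14). Python 3.11.15 and matplotlib were used for tables and plots.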

Additional observations from a re-analysis of the deposited data

Results flagged for a closer look

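Among 64 sets of line changes of the 32 tested members (10 lines between E and untreated, 8 between E and EA), 7 held a line far from its nearest neighbour for the spread of the set. Chance gives about 1 in 20 of independent sets, or 3.2 of 64, but these sets share libraries and are not independent. The share of all genes flagged by this rule is not given. PAR was that line in 5 of the 7 and Y821F in 2. With E against untreated, PAR gave the lowest line change in 40.6% of the members and in 33.0% of all genes tested. With E against untreated, PAR was low for SLC7A5 (0.498, against 0.97 to 1.23 in the other lines), SLC7A1 (-1.04, against -0.67 to -0.43) and DDIT4 (-0.501, against -0.12 to 0.21), and Y821F was low for GOT1 (-1.24, against -0.95 to -0.66). Between E and EA, PAR was high for PSAT1 (0.877, against 0.14 to 0.43) and low for SLC38A2 (-0.303, against -0.05 to 0.18), and Y821F was low for PYCR1 (-0.537, against -0.12 to 0.19). Each rests on 1 library in each treatment.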

How the results depend on the processing

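Counts of members that rose or fell stayed within 1.5 times the reported ones under most alternatives. From a mean of 1 TPM, which admits all 40 members, 10 rose with E against untreated, 0 between E and EA and 7 with EA against untreated. The member that rose between E and EA numbered 2 with protein-coding transcripts only and 0 without the replicate block, and the cause was not tested. Leaving out each line in turn gave 5 to 6 members higher and 21 to 22 lower for E against untreated, 0 to 2 higher between E and EA, and 4 to 5 higher and 20 to 21 lower for EA against untreated. Without the replicate block 4 members rose with E and 21 fell, and DDIT3 and PPP1R15B no longer passed. Over all genes between E and EA, 171 rose and 43 fell, and the numbers were 9 and 0 without the block and 133 and 72 with library medians centred, which moved the share of rises from 79.9% to 64.9%. Leaving out a single line gave 10 and 0 without Y634F, 18 and 0 without Y643F, 48 and 7 without Y698F, 49 and 6 without PAR, 62 and 14 without Y750F, 83 and 11 without Y821F, 110 and 21 without WT and 146 and 42 without Y726F. Of 563 single values of the genes with full statistics, 549 kept their direction and their side of the threshold, 8 lost and 3 gained the call. The 3 reversed values were of ATF4 between E and EA, at 0.0079 with quantile normalization, 0.00094 with quality weights and 0.0076 without PAR (-0.027 to 0.0076 over the lines left out), and were not called. TPM gives no depth, so counting error could not be separated from the spread between lines.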
